A study of Solanum lycopersicum with 8 samples.

Results

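A stretch of tomato chromosome 1 around the gene Solyc01g100600 was followed through RNA sequencing of the shoot apical meristem in the late termination (ltm) mutant and in wild type (WT). The stretch was taken as all genes numbered Solyc01g099600 to Solyc01g101600, and its members were the genes with a normalized read count of at least 10 in at least 2 of the 8 libraries. Of 163 identifiers listed there, 133 met this rule, of 19186 genes that met it in the whole table. The stretch was chosen on the measured difference between ltm and WT, because Solyc01g100600 was the 1 gene that an earlier analysis of the same table called between the genotypes at both stages. Values of ltm against WT are therefore given below as a description, without p-values. The homeobox gene TKN4 (Solyc01g100510) lies inside the stretch and was left out of the members.

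The 4 groups were ltm meristems with 6 leaves, WT meristems with 6 leaves, ltm meristems with 4 leaves and WT meristems with 4 leaves, each with 2 libraries labelled A and B. Meristems were dissected from acetone-fixed, greenhouse-grown seedlings, and no agent was applied in any group. The labels call ltm a mutant and give neither its locus, allele or parental line nor the number of plants per library. Nothing in them says that A and B came from separate pools of plants, so the spread between them may be technical. The series' design sets ltm against WT at the vegetative stage, and WT at the floral transition against vegetative WT. Below, stage means the number of leaves. Whether ltm and WT with equal leaf numbers were alike in the floral transition was not tested. Genotype and transition can therefore not be told apart in their differences.

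The shoot apical meristem is the dome of dividing cells at the shoot tip that forms leaves and, after the floral transition, flowers. Tomato identifiers of this kind carry the chromosome in their first digits and are numbered along it, so consecutive numbers stand for neighbouring genes. Class I KNOX proteins, to which TKN4 belongs, keep meristem cells undifferentiated. Neither the table nor the gene reference used here pairs the identifiers of the members with names, so the members are described by identifier and place, without a role.

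Between 17895357 and 21987881 reads per library were assigned to genes. Values are normalized read counts, and differences are on the log2(value + 1) scale with a standard error from limma, a linear model fitted to all genes and all 8 libraries. The meristem markers were detected in every library: the KNOX gene TKN2 at values of 4388 to 6828, the KNOX gene TKN1 at 1299 to 3320, the stem cell regulator WUS at 152.4 to 245.7 and the stem cell signal CLV3 at 85.6 to 330.7. TKN1 values followed genotype. It averaged 3124 ± 276 in ltm and 1556 ± 33.9 in WT at 6 leaves, and 2737 ± 442 in ltm and 1441 ± 201 in WT at 4 leaves (SD, n = 2 each), with all ltm libraries above all WT libraries. CLV3 had differences of -0.52 ± 0.40 at 6 leaves and -0.61 ± 0.40 at 4 leaves between ltm and WT. The part of these marker differences in the values of the stretch was not tested. Both 4 leaves B libraries stood apart. On the first principal component, with 35.4% of the variance, they lay at 44.2 (ltm) and 46.4 (WT), while the remaining 6 libraries lay between -38.9 and 5.57. Values are therefore given for A and B separately where a result could rest on them.

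Solyc01g100600 stood far above WT in each ltm library. At 6 leaves it had 14766 and 15031 normalized reads in the ltm A and B libraries, against 1843 and 2021 in WT. At 4 leaves it had 13783 and 10363 in ltm, against 1570.0 and 1730.0 in WT. The lowest ltm library was thus several times above the highest WT library at either stage, and the 2 ltm libraries were more alike at 6 leaves than at 4 leaves. Taken letter by letter, the ratio of ltm to WT was 8.01 (A) and 7.44 (B) at 6 leaves and 8.78 (A) and 5.99 (B) at 4 leaves. The differences were 2.95 ± 0.15 (log2, SE) at 6 leaves and 2.86 ± 0.15 at 4 leaves. The smallest ratio came from the 4 leaves B libraries, and the difference at 4 leaves was 3.13 without them. In ltm the gene took 3.20% to 4.54% of all reads assigned to the members of the stretch, against 0.497% to 0.597% in WT. In whole meristems a difference in the share of cells that carry a transcript and a difference in RNA per cell cannot be told apart.

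The genes directly next to it also had higher values in every ltm library than in any WT library. Solyc01g100590, the member just before it, had 1194 and 1277 in ltm against 877.3 and 952.5 in WT at 6 leaves. At 4 leaves it had 974.6 and 1379 in ltm against 896.5 and 958.4 in WT. The ltm and WT libraries did not overlap, but at 4 leaves the lower ltm library exceeded the higher WT library by little. Its differences were 0.43 ± 0.16 at 6 leaves and 0.32 ± 0.16 at 4 leaves, and the ratio of ltm to WT ran from 1.09 (A at 4 leaves) to 1.44 (B at 4 leaves).

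Solyc01g100610, the member just after Solyc01g100600, had 1614 and 1697 in ltm against 1276 and 1376 in WT at 6 leaves. At 4 leaves it had 1664 and 1736 in ltm against 1273 and 1377 in WT. Its ratio of ltm to WT stayed within 1.23 to 1.31 over both letters and both stages. The differences, 0.32 ± 0.10 at 6 leaves and 0.36 ± 0.10 at 4 leaves, were small and moved little between libraries.

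Solyc01g100620, the next gene, had the second largest difference of the members at each stage. It had 205.4 and 213.9 in ltm against 51.8 and 69.1 in WT at 6 leaves, and 281.2 and 103.7 in ltm against 64.0 and 48.0 in WT at 4 leaves. The groups did not overlap at either stage, while ltm 4 leaves A held more than its B library by a wide margin. The differences were 1.79 ± 0.42 at 6 leaves and 1.61 ± 0.42 at 4 leaves. By letter the ratios were 3.97 (A) and 3.10 (B) at 6 leaves and 4.40 (A) and 2.16 (B) at 4 leaves. These values rest on 103 to 277 reads per library in ltm and on 46 to 70 in WT.

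**Figure D1:**
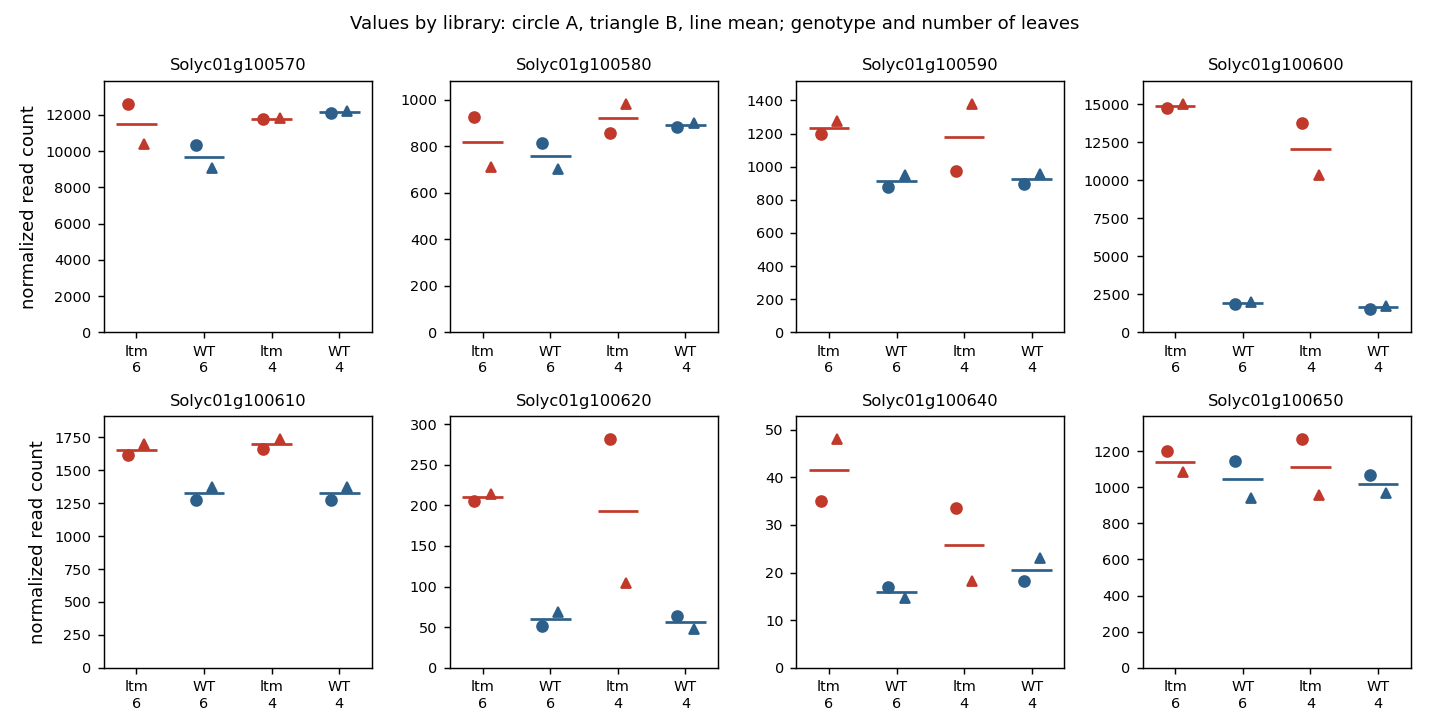
Normalized read counts (vertical axes, from 0) of 8 consecutive members from Solyc01g100570 to Solyc01g100650, by genotype and number of leaves. Red is ltm, blue is WT, circles are A libraries, triangles are B libraries and lines are means of 2. Solyc01g100590 to Solyc01g100620 have every ltm library above every WT library, and the genes at both ends of the row do not.

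Beyond these 4 genes the pattern did not go on in the same form. Solyc01g100630 was below the threshold for members, with 5 reads in ltm and 3 in WT over both 6 leaves libraries, and 8 in ltm and 5 in WT at 4 leaves. Solyc01g100640 had 35.0 and 48.0 in ltm against 16.9 and 14.7 in WT at 6 leaves, without overlap. At 4 leaves it had 33.5 and 18.1 in ltm against 18.3 and 23.0 in WT, and the groups overlapped. The differences of Solyc01g100640 were 1.32 ± 0.41 at 6 leaves and 0.26 ± 0.41 at 4 leaves, from 13 to 48 reads per library. At 4 leaves the ratio was 1.83 between the A libraries and 0.789 between the B libraries, so its direction there depended on the letter.

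Solyc01g100650 and Solyc01g100660 followed. The ratio of ltm to WT was 0.987 to 1.18 over letters and stages for Solyc01g100650 and 0.821 to 1.07 for Solyc01g100660, and the groups overlapped at both stages. On the other side, Solyc01g100580 had 925.5 and 710.8 in ltm against 812.6 and 703.3 in WT at 6 leaves, and 858.9 and 981.9 in ltm against 884.6 and 897.9 in WT at 4 leaves. Its libraries overlapped between the genotypes at each stage. Solyc01g100570 had differences of 0.25 ± 0.14 at 6 leaves and -0.043 ± 0.14 at 4 leaves, of opposite sign. The ratios of Solyc01g100530 lay between 1.03 and 1.12 and those of Solyc01g100540 between 0.979 and 1.35, with overlapping groups at both stages. TKN4, a few genes further back, had 1201 and 1333 in ltm against 1306 and 1648 in WT at 6 leaves, and 1139 and 896.3 in ltm against 1262 and 972.0 in WT at 4 leaves. Its differences were -0.21 ± 0.18 and -0.13 ± 0.18.

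The libraries were made with a kit that does not mark the strand of the RNA, and positions and strands of the genes were not analysed here. Reads from overlapping or antisense neighbours can therefore not be told apart from those of the gene they were counted for. The part of such reads in the values of the neighbours was not tested.

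**Figure D2:**
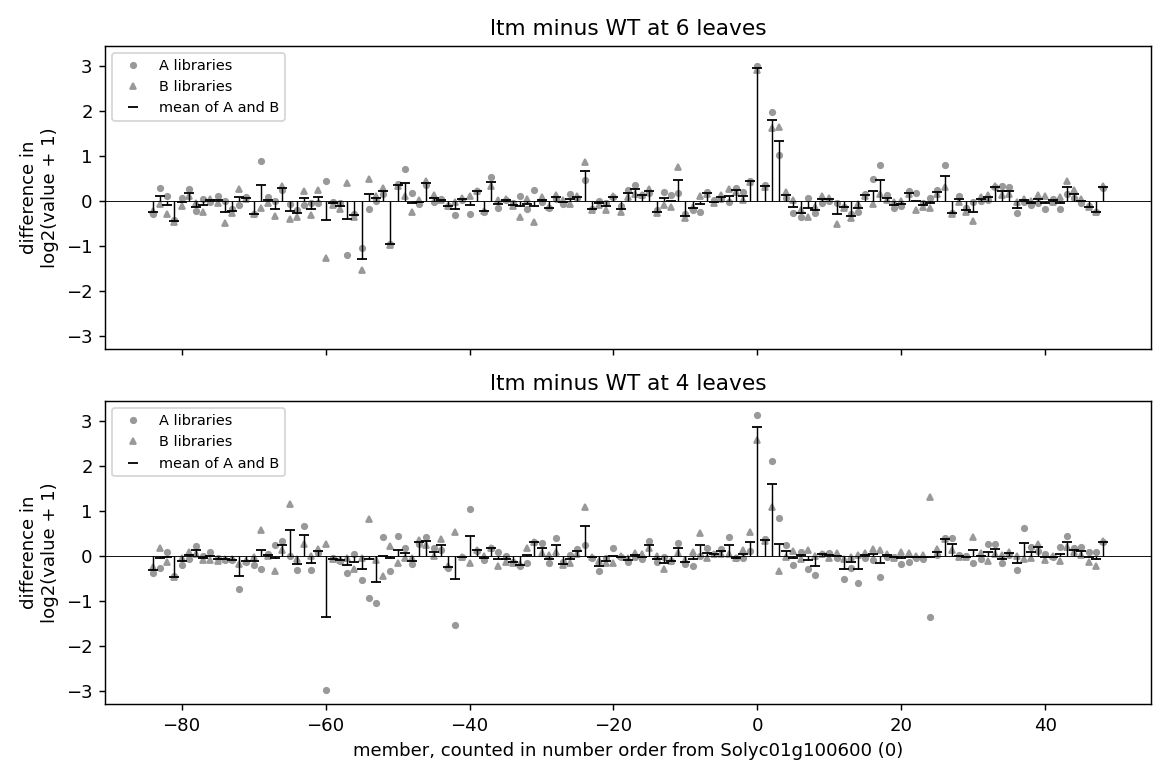
Difference in log2(value + 1) between ltm and WT (vertical axes) for the 133 members in number order, with Solyc01g100600 at 0, at 6 leaves (upper panel) and 4 leaves (lower panel). Grey circles and triangles are the differences within the A and B libraries and black marks their mean. Solyc01g100600 at 0 and Solyc01g100620 at place 2 have the 2 highest means in each panel. Solyc01g100590 and Solyc01g100610, at 0.32 to 0.43, lie within the range of the other members, of which Solyc01g100300 reaches 0.66 at 6 leaves and 0.68 at 4 leaves. The values of Solyc01g100300 are low, 4.18 to 41.6, and higher in each A library than in each B library.

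Over the whole stretch the members were centred near 0. The median difference was 0.0061 at 6 leaves and -0.017 at 4 leaves, beside -0.0054 and -0.0020 over all 19186 genes. At each stage 126 of the 133 members differed by less than 0.5 (log2). The median absolute difference was 0.15 at 6 leaves and 0.11 at 4 leaves, against 0.16 and 0.12 over all genes. More than 1 in either direction was reached by 4 members at 6 leaves (3.01%, against 2.34% of all genes) and by 3 at 4 leaves (2.26%, against 1.96%). Beside Solyc01g100600, Solyc01g100620 and Solyc01g100640 these were Solyc01g099940 at 6 leaves and Solyc01g099870 at 4 leaves, each lower in ltm. Solyc01g099940 had 4 and 4 reads in ltm against 9 and 12 in WT at 6 leaves. Solyc01g099870 had 3 and 19 reads in ltm against 34 and 15 in WT at 4 leaves, so its groups overlapped.

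All 4 ltm libraries lay above all 4 WT libraries in 7 members (5.26%), beside 3.55% of all genes tested. They lay below in 1 member (0.752%), beside 2.41% of all genes. Without Solyc01g100590 to Solyc01g100620 the count above was 3 of 129 (2.33%). Separate stages gave shares close to the background. At 6 leaves both ltm libraries lay above both WT libraries in 24 members (18.0%, against 22.5% of all genes) and below in 28 (21.1%, against 21.9%). At 4 leaves the counts were 15 (11.3%, against 12%) and 16 (12.0%, against 11.7%). With the 4 leaves B libraries left out, which loosens the condition, the ltm libraries lay above in 13 members (9.77%, against 11.3% of all genes) and below in 15 (11.3%, against 9.59%).

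The 7 members included 3 that stood away from Solyc01g100600. Solyc01g100940, 26 members after it, had 318.0 and 322.9 in ltm against 183.2 and 259.4 in WT at 6 leaves, and 290.4 and 306.2 in ltm against 221.2 and 234.9 in WT at 4 leaves. The differences of 0.55 ± 0.18 and 0.39 ± 0.18 were the largest of the 3. Solyc01g100130 had 933.1 and 889.7 in ltm against 808.6 and 769.0 in WT at 6 leaves, and 848.7 and 898.4 in ltm against 785.0 and 815.4 in WT at 4 leaves. Its differences were 0.21 ± 0.10 and 0.13 ± 0.10. Solyc01g100400 had 212.9 and 203.9 in ltm against 190.2 and 169.9 in WT at 6 leaves, and 236.5 and 230.6 in ltm against 188.3 and 203.6 in WT at 4 leaves. For this gene the lowest ltm library and the highest WT library nearly met.

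Solyc01g099650, near the start of the stretch, was the 1 member with all ltm libraries below WT. It had 357.7 and 291.9 in ltm against 481.0 and 407.7 in WT at 6 leaves, and 312.7 and 306.2 in ltm against 428.6 and 421.8 in WT at 4 leaves. The differences, -0.45 ± 0.15 and -0.46 ± 0.15, were alike at the stages.

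Ordered by distance, the 10 members nearest to Solyc01g100600 held 3 of the 6 others with all ltm libraries above WT. The median difference of all 10, within 5 places, was 0.19 at 6 leaves and 0.18 at 4 leaves. Among the 20 members 6 to 15 places away 1 did, and the medians were -0.11 and -0.030. The differences of these 20 ranged from -0.35 to 0.47 at 6 leaves and from -0.29 to 0.25 at 4 leaves. Farther out, 1 of 30 members at 16 to 30 places and 1 of 48 at 31 to 60 places had all ltm libraries above WT. From 61 to 84 places it was 0 of 24. Over all genes tested the share was 3.55%, and these small counts are not read as a decline with distance. With Solyc01g100600 itself, the 3 nearest made a run of 4 consecutive members. Over all tested genes in number order there were 2 runs of 4 or more with all ltm libraries on the same side, both above WT. The other had 5 genes, Solyc07g062790 to Solyc07g062850 on chromosome 7. The run of 4 contains Solyc01g100600, whose difference placed the stretch. The count of runs is therefore a description and no test of the neighbours.

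Other stretches were set beside this one without a test. In identifier bins, the count of members with all ltm libraries above WT was 0 of 42 from Solyc01g099600 and 3 of 42 (7.14%) from Solyc01g100100. It was 4 of 39 (10.3%) from Solyc01g100600 and 0 of 10 from Solyc01g101100, beside 3.55% of all genes tested. The flanking stretch before had 9 of 139 (6.47%) and the one after 1 of 109 (0.917%). The rest of chromosome 1 had 83 of 2349 (3.53%), and the chromosome 7 stretch that holds the run of 5 had 9 of 141 (6.38%). The share in the whole stretch around Solyc01g100600, 5.26%, thus lay within the range of these other stretches. The middle bins lay above that range, and they hold the run that contains Solyc01g100600.

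**Figure D3:**
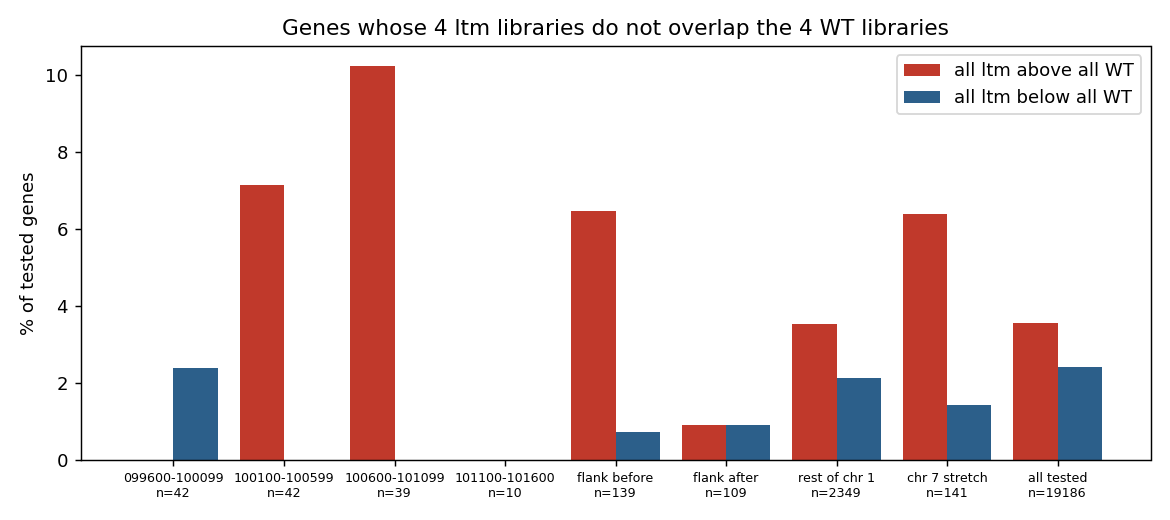
Share of tested genes (vertical axis, percent) whose 4 ltm libraries all lay above (red) or all below (blue) the 4 WT libraries, in 4 identifier bins of the stretch and in 5 sets for comparison, with the number of genes under each. The bin from Solyc01g100600 holds 4 of 39, and all tested genes stand at 3.55% above and 2.41% below.

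Between the stages, which share no library, the differences of the genotypes went together across the members, with a correlation of 0.77 over 133 genes. Without Solyc01g100590 to Solyc01g100620 it was 0.44 over 129 genes, beside 0.42 over all tested genes. Genes are not independent replicates, and libraries of the same letter deviated together. With adjustment over all genes, limma and edgeR each called 1 member, Solyc01g100600, at each stage, against 0.00521% of all genes. DESeq2 gave no adjusted p-value to 3 members at 6 leaves, where 18442 genes had one. It called 2 members, adding Solyc01g100620, at 6 leaves (0.201% of those genes) and at 4 leaves (0.099% of all genes). These calls come from the contrast that placed the stretch and are not read further.

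**Figure D4:**
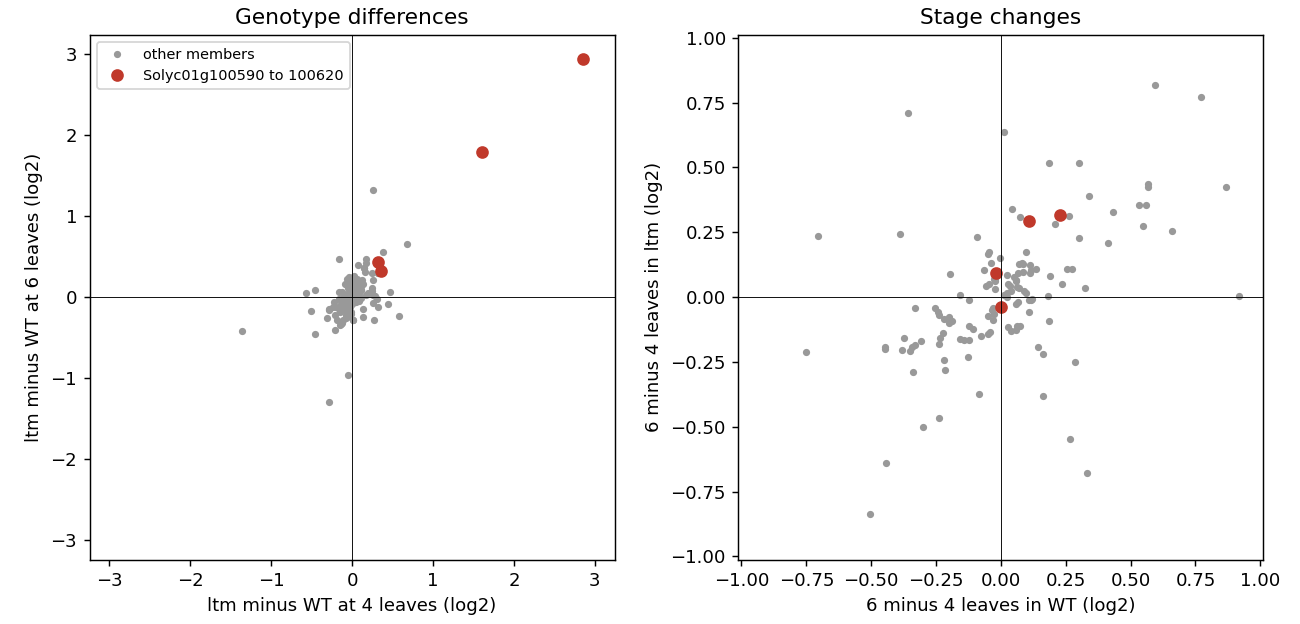
Each point is 1 of the 133 members. The left panel plots the difference between ltm and WT at 6 leaves against that at 4 leaves, the right panel the change from 4 to 6 leaves in ltm against that in WT, all in log2(value + 1). The run Solyc01g100590 to Solyc01g100620 (red) reaches 2.86 and 2.95 in the left panel, and its stage changes in the right panel are at most 0.32.

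The changes from 4 to 6 leaves within ltm and within WT were not used to place the stretch, and were tested. No member passed in limma or edgeR after adjustment over all genes in ltm or in WT, and 0% of all genes did. DESeq2 called 0 members, with 0.0208% of all genes in ltm and 0.0573% in WT. At an unadjusted p under 0.05, limma had 3 members in ltm (2.26%, against 3.19% of all genes) and 8 in WT (6.02%, against 6.04%). In edgeR these counts were 4 (3.01%, against 3.32% of all genes) and 9 (6.77%, against 5.97%). In DESeq2 they were 4 (3.01%, against 2.55%) and 7 (5.26%, against 5.01%). The change in ltm minus that in WT equals the genotype difference at 6 leaves minus that at 4 leaves, so it is built from the values that placed the stretch. It is given without a p-value for single members, and its counts are not read further. After adjustment 0 members were called in limma, edgeR and DESeq2, as were 0% of all genes. At an unadjusted p under 0.05 limma had 0 members (against 0.719% of all genes) and edgeR 0 (against 0.761%). DESeq2 had 1 (0.752%, against 0.365%).

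Solyc01g100600 had a stage change of 0.32 ± 0.15 in ltm (95% interval -0.022 to 0.66, limma adjusted p = 0.9998) and of 0.23 ± 0.15 in WT (-0.11 to 0.57, limma adjusted p = 0.736). The change in ltm minus that in WT was 0.09 ± 0.21. The 95% intervals of the stage changes of its neighbours also held 0 in both genotypes. They were -0.68 to 1.27 in ltm and -0.87 to 1.08 in WT for Solyc01g100620. For Solyc01g100610 they were -0.27 to 0.19 in ltm and -0.23 to 0.23 in WT, and for Solyc01g100590 -0.28 to 0.46 in ltm and -0.39 to 0.35 in WT.

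Solyc01g100240 had the smallest stage p-value of the members. It had 266.9 and 275.9 at 6 leaves against 212.2 and 192.4 at 4 leaves in ltm, and 273.8 and 259.4 at 6 leaves against 174.5 and 184.8 at 4 leaves in WT. Both 6 leaves libraries lay above both 4 leaves libraries in each genotype. The change was 0.42 ± 0.14 in ltm (limma unadjusted p = 0.0175, adjusted p = 0.9998) and 0.57 ± 0.14 in WT (unadjusted p = 0.00399, adjusted p = 0.727). Solyc01g099600, the first gene of the stretch, had 1138 and 1064 at 6 leaves against 865.0 and 907.4 at 4 leaves in ltm, and 1392 and 1247 at 6 leaves against 1128 and 1070.1 at 4 leaves in WT. Its changes were 0.31 ± 0.11 in ltm and 0.26 ± 0.11 in WT, again in the same direction and not past the adjusted threshold.

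Solyc01g099970 had 1280.4 and 1336 at 6 leaves against 694.4 and 1018 at 4 leaves in ltm. The change was 0.64 ± 0.19 (limma unadjusted p = 0.0110, adjusted p = 0.9998), and 0.36 to 0.91 without single libraries. In WT the gene had 1279.6 and 1238 at 6 leaves against 1437 and 1087 at 4 leaves, a change of 0.010 ± 0.19. In WT, Solyc01g101070 and Solyc01g099930 also had unadjusted p-values under 0.05, with changes of 0.55 ± 0.21 and 0.41 ± 0.16 and adjusted p-values of 0.727 in limma. All values of Solyc01g101070 at 6 leaves in WT, 1337 and 1712, lay above those at 4 leaves, 934.0 and 1148.

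The members with the most reads showed small genotype differences. Solyc01g099770 had 56461 and 61949.5 in ltm against 68917 and 75477 in WT at 6 leaves, and 49633 and 43023 in ltm against 56669 and 43766 in WT at 4 leaves. Its differences were -0.29 ± 0.21, without overlap at 6 leaves, and -0.11 ± 0.21, with overlap at 4 leaves. Solyc01g099830 had differences of -0.28 ± 0.14 and -0.19 ± 0.14, with ltm below WT at each stage. For Solyc01g099900 the differences were -0.12 ± 0.20 and -0.097 ± 0.20, and the groups overlapped at both stages.

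The threshold for members lay between values that were close together. The member with the lowest second highest value was Solyc01g100890 at 11.9, followed by Solyc01g100070 at 13.2, and just outside were Solyc01g099620 at 9.40 and Solyc01g099880 at 9.06. The mean value over the 8 libraries ranged from 7.93 to 56987 among the members, with 105 of them above 100. Of the 30 identifiers below the threshold 14 had no read in any library and the others at most 57 reads in all libraries together.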

How the data were processed

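The submitters' processing notes name HTSeq 0.6.1p1, DESeq2 1.6.3 and TopHat2 2.0.10. The build of the genome was not given in the sources used here. Signal values, as deposited by the authors, are gene read counts divided by 1 size factor per library (0.883 to 1.09). Whole reads could be recovered for 100% of values (tolerance 1e-06).

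The log2(value + 1) data of all 8 libraries were fitted in limma 3.58.1 with an intensity trend (R 4.3.3) and 1 mean per group. Of 34722 genes, the 19186 that reached 10 in 2 or more libraries entered, and p-values were adjusted by Benjamini-Hochberg over all of them (threshold 0.05). Fold changes of low genes are understated on this scale. The script was tested on simulated data. edgeR 4.0.16 called 1 gene over all genes in each genotype comparison and 0 otherwise, and DESeq2 1.42.0 called 37 (6 leaves) and 19 (4 leaves). Depth was 17895357 to 21987881 reads in genes per library, and the intervals given cover the spread between libraries only.

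The letters A and B were checked for pairing. Deviations of the A libraries from the mean of their group correlated across genes at 0.13 to 0.52 in all 6 pairs of groups, so the letter was fitted as a block as an alternative, which the labels do not ask for.

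The members and all lists were chosen with earlier results of these data known. Genes were named by rule: Solyc01g100600, 5 members on each side, members with non-overlapping genotypes at both stages, the 3 smallest p-values per stage comparison and the 3 highest values. Solyc01g100070, Solyc01g099620, Solyc01g099870, Solyc01g099880, Solyc01g099940, Solyc01g100630, Solyc01g100890 and the genes of the closing observations were named after their values were seen. Planned markers of green leaf tissue were not used, since the gene reference holds no product names. Symbols of the meristem markers rest on the identifier, and RefSeq (SLM_r2.1) lists each symbol on the same chromosome. Sequences were not used here.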

Additional observations from a re-analysis of the deposited data

Results flagged for a closer look

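For 3 members the groups did not overlap at either stage and the direction was opposite at the stages, beside 1.57% of all genes (2.26% of the members). With 3 members, the shares are not read as different. The genotype difference at 6 leaves minus that at 4 leaves was 0.63 for Solyc01g099970, 0.29 for Solyc01g100570 and -0.28 for Solyc01g099690. For Solyc01g099970 the groups nearly met at 6 leaves, with 1280.4 in the lowest ltm library and 1279.6 in the highest WT library. Its difference there was 0.055 ± 0.19, so its direction at 6 leaves is not settled. These values are built from the genotype differences that placed the stretch and are given as a description, without a p-value.

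For 2 members the stage change had opposite directions in ltm and WT, without overlap in either genotype (1.50% of the members, beside 1.75% of all genes). Solyc01g100640 had a change of 0.71 in ltm and of -0.36 in WT, which differ by 1.07. Solyc01g100040 had a change of -0.19 in ltm and of 0.14 in WT, which differ by -0.33. Groups nearly met for both genes. In ltm, Solyc01g100640 had 35.0 in the lowest 6 leaves library and 33.5 in the highest 4 leaves library. In WT, Solyc01g100040 had 1142.8 in the lowest 6 leaves library and 1135.9 in the highest 4 leaves library. The opposite directions are thus not settled, and the differences between the changes too are a description.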

How the results depend on the processing

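Solyc01g100600 had a difference of 2.88 to 3.01 at 6 leaves and of 2.65 to 3.13 at 4 leaves over all alternatives, and Solyc01g100610 one of 0.27 to 0.38 and of 0.30 to 0.42. Solyc01g100620 ranged from 1.59 to 2.00 and from 0.89 to 2.32, and Solyc01g100590 from 0.37 to 0.49 and from 0.072 to 0.57, the lowest at 4 leaves without ltm 4 leaves B. Solyc01g100640 ranged from -0.17 to 0.84 at 4 leaves.

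The count of all genes called at 6 leaves between ltm and WT was 1 in limma. It was 2 with a pseudocount of 5, with no filter or without both 4 leaves B libraries, 3 from only the groups compared and 37 in DESeq2, and 1 to 2 without single libraries, with 2 where WT 4 leaves A or WT 4 leaves B was left out. At 4 leaves it was 19 in DESeq2 and 0 from only the groups compared, which also left 0 members. Over WT stages it was 1 with a pseudocount of 5 and 11 in DESeq2, and over ltm stages 4 in DESeq2. DESeq2 called 2 members at each stage. In limma, the count of members called without Solyc01g100600 was 0 at each stage, and DESeq2 also called Solyc01g100620. With the replicate letter as a block (replicate block) limma called 1 gene in each genotype comparison and 0 otherwise, and this changed no call.

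Leaving out libraries loosens non-overlap by construction. Members with ltm above WT were 7 to 12 over both stages without single libraries, 24 to 50 at 6 leaves and 15 to 45 at 4 leaves, and those below were 2 to 8, 28 to 49 and 16 to 52. Over both stages the count above was 12 without ltm 4 leaves B and 11 without WT 6 leaves A, and the count below was 8 without ltm 4 leaves B, 7 without WT 4 leaves B and at least 2 without any other library. Without both 4 leaves B libraries they were 13 above and 15 below over both stages, and 62 above and 71 below at 4 leaves. The shares lay near those of all genes. Without a single library of the stage, 32.3% to 37.6% of members lay above at 6 leaves (all genes 33.0% to 38.4%) and 24.1% to 33.8% at 4 leaves (26.6% to 36.4%). Below, these were 32.3% to 36.8% (33.6% to 39.3%) and 27.1% to 39.1% (25.8% to 37.7%). Over both stages 5.26% to 9.02% lay above (4.23% to 8.80%) and 1.50% to 6.02% below (3.33% to 6.52%). The 62 and 71 members at 4 leaves make up all 133, since 1 library per genotype cannot overlap. In the inner span (Solyc01g100100 to Solyc01g101100) 0 members lay below over both stages, 17 at 6 leaves and 6 at 4 leaves. Of all genes, 2.41%, 21.9% and 11.7% lay below. That span holds fewer members, nearly all in the bins of 42 and 39, which lowers its counts by construction. The shares below at 6 leaves were 21.4% and 20.5% in these bins, and 21.4% in the bin from Solyc01g099600, outside the span. At 4 leaves they were 11.9% and 2.56%, and 23.8% in the bin from Solyc01g099600. The reason for this was not tested. With no filter 2 members of the stretch lay below over both stages.

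The median difference at 6 leaves was -0.0076 to 0.014 without single libraries, 0.027 in the inner span and -0.019 with no filter. At 4 leaves it was -0.037 to 0.014 without single libraries and 0.0084 in the inner span. The median absolute difference was 0.13 to 0.19 at 6 leaves and 0.11 to 0.21 at 4 leaves without single libraries. It was 0.128 with a filter at 50 and 0.160 with no filter at 6 leaves, and 0.176 without both 4 leaves B libraries at 4 leaves. The cause of these movements was not tested.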

Other observations

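In some members all A libraries lay on the same side of all B libraries, at shares not far from those of all genes. Solyc01g100300 had 38.8 in ltm 6 leaves A and 9.0 in B, 27.9 in WT 6 leaves A and 4.53 in B, 41.6 in ltm 4 leaves A and 10.1 in B, and 34.7 in WT 4 leaves A and 4.18 in B. Its A library was thus 4.31, 6.15, 4.13 and 8.32 times the B library of the same group, and no A library overlapped a B library. Solyc01g100230 went the other way, with 49.2 in ltm 6 leaves A and 85.0 in B, and 41.8 in WT 6 leaves A and 118.9 in B. All 4 A libraries lay above all 4 B libraries in 6 members (4.51%, against 3.72% of all genes tested) and below in 8 (6.02%, against 4.41%).

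Of the 16 identifiers below the threshold for members that had reads, 10 had fewer reads in the 4 ltm libraries than in the 4 WT libraries, 4 had more and 2 had equal numbers. Together they held 166 reads in ltm and 226 in WT. These reads were not divided by size factors, and no identifier had more than 57 in all libraries together. The same split over all genes below the threshold was not made, so these counts are not read further. Solyc01g100210 had 15 in ltm and 33 in WT, and Solyc01g099950 had 12 in ltm and 7 in WT.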
